A study of Mus musculus with 6 samples.

Results

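Described here are 5 liver genes, Moxd1, Selenbp2, Cyp4a12a, Cyp2b9 and Cyp2a22, out of the 1834 genes of an RNA sequencing table of mouse liver. They were picked by name as liver enzyme genes with hormone-patterned or on/off expression, after their values in these same libraries were known, so their differences between the groups are given as a description and carry no test. The tested livers received an adeno-associated virus (AAV) that carries Ly6d (AAV-Ly6d, 3 libraries, genotype given as Ly6d overexpression), and the controls an AAV that carries green fluorescent protein (AAV-GFP, 3 libraries, genotype given as WT). Both groups were on the same diet, and the series title places the study in metabolic dysfunction-associated steatotic liver disease. The sources used here give no strain, sex, age, diet composition, dose, serotype or vector promoter. The labels do not say whether each library is a different animal, so p-values measure only the spread between these libraries, which may be technical.

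Growth hormone reaches the liver in pulses in male rodents and in a steadier form in females. Its receptor activates the kinase JAK2 and the transcription factor STAT5B, and the pulse pattern sets which cytochrome P450 and other metabolic genes are higher in either sex. Many male-biased genes depend on the pulses, and female-biased P450 genes such as Cyp2b9 are low where pulses are present. BCL6 and CUX2 are liver transcription factors with male-biased and female-biased expression that act on the same gene set. In the lists used here, Moxd1, Selenbp2 and Cyp4a12a stand among male-biased genes and Cyp2b9 among female-biased genes, while Cyp2a22 stands in neither.

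The promoter windows are shown as a description of the genes, which were picked from this contrast. Whether the genes share a regulator was not tested. RefSeq's table for GRCm38.p6, from 250 bases before to 50 after the annotated start, holds 4 of the 5 genes, all but Cyp4a12a. Searched on both strands were TTCNNNGAA (the element bound by STAT5, also bound by BCL6), ATCGAT and ATTGAT (cores bound by the CUX and HNF6 factors), AGGTCA (a hexamer bound by nuclear receptors) and TATAAA (the TATA box); capitals mark the matches, and no matches of different motifs overlapped. The windows lie at chr10:24223267-24223566 (plus strand, Moxd1), chr3:94693323-94693622 (plus strand, Selenbp2), chr7:26173159-26173458 (plus strand, Cyp2b9) and chr7:26939337-26939636 (minus strand, Cyp2a22).
Moxd1: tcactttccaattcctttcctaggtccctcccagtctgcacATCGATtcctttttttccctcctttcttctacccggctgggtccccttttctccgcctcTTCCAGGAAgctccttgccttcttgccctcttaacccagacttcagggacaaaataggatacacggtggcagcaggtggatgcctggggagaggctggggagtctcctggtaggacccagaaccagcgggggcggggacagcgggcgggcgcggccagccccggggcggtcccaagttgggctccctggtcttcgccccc
Selenbp2: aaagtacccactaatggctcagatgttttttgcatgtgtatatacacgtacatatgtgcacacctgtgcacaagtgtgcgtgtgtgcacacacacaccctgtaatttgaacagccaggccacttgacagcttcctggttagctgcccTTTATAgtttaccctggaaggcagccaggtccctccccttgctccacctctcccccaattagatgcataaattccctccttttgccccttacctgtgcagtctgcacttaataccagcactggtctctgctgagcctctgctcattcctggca
Cyp2b9: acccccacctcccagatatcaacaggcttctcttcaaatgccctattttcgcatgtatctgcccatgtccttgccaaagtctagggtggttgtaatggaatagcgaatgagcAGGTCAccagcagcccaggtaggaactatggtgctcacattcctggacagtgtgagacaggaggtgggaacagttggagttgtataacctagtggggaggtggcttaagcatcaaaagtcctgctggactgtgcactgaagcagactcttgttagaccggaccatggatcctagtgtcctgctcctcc
Cyp2a22: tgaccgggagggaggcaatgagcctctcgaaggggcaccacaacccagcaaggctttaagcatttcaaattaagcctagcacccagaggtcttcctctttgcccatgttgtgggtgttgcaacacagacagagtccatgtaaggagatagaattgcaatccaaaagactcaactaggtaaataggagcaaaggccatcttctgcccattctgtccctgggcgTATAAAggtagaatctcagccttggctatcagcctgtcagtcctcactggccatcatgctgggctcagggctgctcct
The Moxd1 window held TTCCAGGAA, a match to TTCNNNGAA whose first base lies 150 bases before the RefSeq start, and ATCGAT 209 bases before it. Of 32851 promoter windows in the table, 8.30% held TTCNNNGAA and 0.925% held ATCGAT. The Cyp2b9 window held AGGTCA 138 bases before the start, as 16.3% of all windows did at any position. The Cyp2a22 window held TATAAA 28 bases before the start, the Selenbp2 window held it on the opposite strand 103 bases before, and 13.6% of all windows held it. None of the 4 windows held ATTGAT, which 7.54% of all windows held. By base composition the Moxd1 window had 61.7% G and C, and the other windows between 50 and 51.3%.

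The deposited values are normalised read counts. The reads recovered from them summed to 4359932, 3990935 and 3835101 in AAV-Ly6d and to 3248078, 3442460 and 3448888 in AAV-GFP over the 1834 genes, which are part of each library. Ly6d itself had a normalised read count of 3181, 1799 and 3275 in AAV-Ly6d, against 56.1, 9.68 and 182 in AAV-GFP. AAV-GFP replicate 2 stood apart on principal component 1, at 49.9, where AAV-Ly6d libraries lay at -29.6 to -25.1 and AAV-GFP replicates 1 and 3 at 15.4 and 18.1. The table looks chosen for a difference between these libraries: the smallest absolute log2 fold change among its 1780 tested genes was 0.32, so adjusted p-values within it understate the error. In limma, 782 genes (43.9%) passed an adjusted p of 0.05, 15.9% of the tested genes higher and 28.0% lower in AAV-Ly6d, with a median log2 fold change of -0.67. Rescaling of the libraries by their median ratios moved that median by 0.34 and made 69.2% of 941 calls higher, against 36.2% of the 782, while no tested gene changed direction. The count of 782 fell to 607 without AAV-GFP replicate 2, 139 without replicate 3 and 134 without replicate 1 of that group, and to 104, 19 and 0 without AAV-Ly6d replicates 2, 3 and 1, with 773 genes at an unadjusted p under 0.05 in the last case.

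Among cell type markers, which were listed to see what else moved, all 7 tested of 14 endothelial markers fell, and 5 of 8 tested of 12 stellate cell and fibroblast markers fell and 3 did not pass, where 28.0% of all tested genes fell. The summed normalised read count of the endothelial markers ranged from 2027 to 2775 in AAV-Ly6d and from 5641 to 9587 in AAV-GFP, and that of the stellate markers from 1062 to 2415 and from 3336 to 4779. Of 16 listed hepatocyte markers 8 were tested, of which 5 rose and 3 did not pass, where 15.9% of all tested genes rose. The other listed hepatocyte markers are not in the table. Sums of the tested ones were 667548 to 707473 in AAV-Ly6d and 501152 to 947844 in AAV-GFP. Without Apob, which was 743167 in AAV-GFP replicate 2, these sums were 480388 to 514790 in AAV-Ly6d and 204677 to 345800 in AAV-GFP and no longer overlapped (Apob was left out after the values were seen). Both tested of 8 cholangiocyte and progenitor markers, Tff3 and Sox9, rose, with summed levels of 303 to 1111 in AAV-Ly6d and 59.2 to 80.2 in AAV-GFP. The rest of that list, Krt19, Krt7 and Epcam included, is not in the table. Of 6 listed erythroid markers 5 were tested, of which 2 fell and 3 did not pass. Their sums were 1898 to 2850 in AAV-Ly6d and 2708 to 5863 in AAV-GFP. The lists for Kupffer cells, T cells, B cells, neutrophils and sex chromosome transcripts have 0 genes in the table and were not analysed here. In bulk liver fewer cells of a type and less RNA per cell cannot be told apart, and the part of these markers in the results on the 5 enzyme genes was not tested.

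Moxd1, which encodes a copper-dependent monooxygenase related to dopamine beta-hydroxylase, was on in every AAV-Ly6d library and had no read in any AAV-GFP library. Its normalised read count was 703, 716 and 507 in AAV-Ly6d, from 723, 718 and 466 reads, against 0, 0 and 0 in AAV-GFP. The AAV-Ly6d mean was 642 ± 117 (SD, n = 3), at least 673-fold higher than AAV-GFP when 3 reads over the AAV-GFP group are taken as its upper limit. The gene (chromosome 10, 24223517 to 24302790, plus strand, GRCm38) shares none of the 50-base stretches of its longest coding transcript with another annotated gene, so reads of a near copy do not enter its count by exact identity. Of the table's genes, 9 were at 0 in all AAV-GFP libraries and above 0 in all AAV-Ly6d libraries, and 30 showed the opposite pattern. Among these 39 genes, means in the group that was on lay between 3.53 and 12.0 for all but Moxd1. The amino acid transporter gene Slc7a15, the kinase gene Bmx and the homeobox gene Hoxb2, all at 0 in AAV-GFP, averaged 6.85, 5.06 and 3.67 in AAV-Ly6d (these 3 named after their values were seen). Pam, a peptide-amidating monooxygenase gene listed here as a relative of Moxd1, was lower in AAV-Ly6d. It had 196, 340 and 275 in AAV-Ly6d against 460, 1006 and 511 in AAV-GFP and fell (log2 fold change -1.23, SE 0.35, adjusted p = 0.0405 in limma). Pam passed without AAV-GFP replicate 2 (-0.88) and in no other fit that left out a library.

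**Figure D1:**
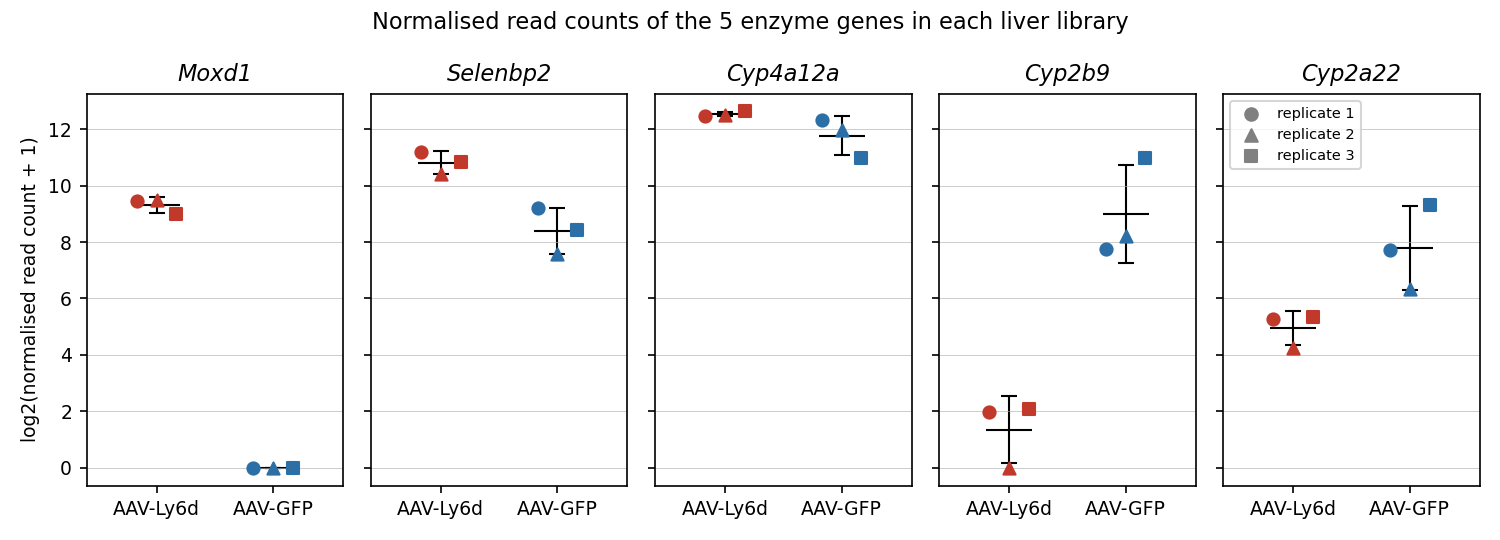
Each point is 1 library on a vertical axis of log2(normalised read count + 1), with AAV-Ly6d left of AAV-GFP in each panel, and bars give the mean and SD of the 3 log2 values. Moxd1 sits at 0 in all AAV-GFP libraries, Cyp2b9 lies near 0 in AAV-Ly6d, and Cyp4a12a shows the smallest gap between the groups.

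Selenbp2, a selenium-binding protein gene whose relative Selenbp1 is a methanethiol oxidase in humans, was higher in AAV-Ly6d in all libraries. Its normalised read count was 2363, 1349 and 1804 in AAV-Ly6d, against 591, 188 and 340 in AAV-GFP. The lowest value in AAV-Ly6d was 2.28 times the highest in AAV-GFP, so the groups did not overlap. The means were 1839 ± 508 in AAV-Ly6d and 373 ± 203 in AAV-GFP (SD, n = 3 each), a ratio of 4.93, and the log2 fold change was 2.41 (SE 0.41). It was 2.00 without AAV-GFP replicate 2, the lowest library, and between 2.21 and 2.82 without any one of the others. Selenbp2 (chromosome 3, 94693556 to 94704413, plus strand) shares 52.0% of the 50-base stretches of its longest coding transcript with Selenbp1, which is not analysed here, so reads could be split between both. The table genes whose starts lie within 500 kb of it are the proteasome subunit genes Psmb4 (log2 fold change 0.38, adjusted p = 0.0637 in limma) and Psmd4 (0.47, adjusted p = 0.0574 in limma), which did not pass.

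Cyp4a12a, a fatty acid hydroxylase gene whose product makes 20-HETE from arachidonic acid and is male-predominant in mouse, differed least. Its normalised read count was 5670, 5835 and 6340 in AAV-Ly6d, against 5182, 4051 and 2024 in AAV-GFP. The AAV-Ly6d libraries lay close together and above every AAV-GFP library, but the gap to the highest of these was narrow, at a ratio of 1.09. The means were 5948 ± 349 in AAV-Ly6d and 3752 ± 1600 in AAV-GFP (SD, n = 3 each), a ratio of 1.59. The coefficient of variation was 5.86% in AAV-Ly6d and 42.7% in AAV-GFP. The log2 fold change was 0.77 (SE 0.33) and dropped to 0.37 without AAV-GFP replicate 3, the lowest library.

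The near copy Cyp4a12b differed more. It had 2710, 2362 and 2016 in AAV-Ly6d against 1199, 1065 and 227 in AAV-GFP and rose (log2 fold change 1.82, SE 0.57, adjusted p = 0.0435 in limma). The log2 fold change was 1.05 without AAV-GFP replicate 3, where the gene still passed. Cyp4a12b also passed without AAV-GFP replicate 2, and it did not pass without AAV-GFP replicate 1, without any AAV-Ly6d library or in edgeR on the deposited scale (1.51). The value of Cyp4a12b over that of Cyp4a12a was 0.478, 0.405 and 0.318 in AAV-Ly6d and 0.231, 0.263 and 0.112 in AAV-GFP, so every AAV-Ly6d library had the higher ratio. Of the 50-base stretches of the Cyp4a12a transcript 48.9% occur in Cyp4a12b too, and the sources used here do not say how such reads were counted. Summed over both copies the values were 8380, 8197 and 8356 in AAV-Ly6d, against 6381, 5117 and 2251 in AAV-GFP, a ratio of means of 1.81.

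Cyp4a12a lies on chromosome 4 (115299046 to 115332815, plus strand) within a Cyp4 cluster, and 5 further table genes start within 500 kb of it. The neighbours Cyp4a31 and Cyp4a10, fatty acid hydroxylase genes induced through PPAR alpha, rose by log2 fold changes of 1.47 (SE 0.31, adjusted p = 0.0312 in limma) and 0.94 (SE 0.29, adjusted p = 0.0415 in limma). Cyp4a31 averaged 1266 ± 271 in AAV-Ly6d and 470 ± 185 in AAV-GFP, and Cyp4a10 averaged 40350 ± 8211 in AAV-Ly6d and 21547 ± 7701 in AAV-GFP (SD, n = 3 each). Cyp4b1, a P450 gene of another subfamily at the same place, fell (log2 fold change -1.04, SE 0.32, adjusted p = 0.0414 in limma), a call lost when the libraries were rescaled (-0.70). Efcab14 did not pass (-0.67, adjusted p = 0.0713 in limma). Without 1 library, Cyp4a31 passed only when AAV-GFP replicate 1 or 2 was left out, Cyp4a10 only without AAV-GFP replicate 1 and Cyp4b1 only without AAV-GFP replicate 2 or AAV-Ly6d replicate 2.

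Cyp2b9, a P450 gene with female-predominant expression in mouse liver, was close to absent in AAV-Ly6d. Its normalised read count was 2.92, 0 and 3.26 in AAV-Ly6d, from 3, 0 and 3 reads, against 216, 295 and 2016 in AAV-GFP, from 223, 274 and 2389 reads. AAV-GFP replicate 3 held 9.34 times the lowest AAV-GFP library, and yet the lowest AAV-GFP library held 66.1 times the highest AAV-Ly6d library. The means were 2.06 ± 1.79 in AAV-Ly6d and 842 ± 1017 in AAV-GFP (SD, n = 3 each), so the AAV-GFP mean was 409 times that of AAV-Ly6d and rested largely on 1 library. The log2 fold change was -7.63 (SE 0.91), -6.63 without AAV-GFP replicate 3 and -6.21 with a pseudocount of 5. Cyp2b9 was the only gene of the table with at most 6 reads over AAV-Ly6d and a mean of at least 100 in AAV-GFP, and Moxd1 was the only gene with the reverse pattern; these limits were set after the values were seen. Cyp2b9 (chromosome 7, 26173411 to 26210661, plus strand) shares 11.2% of its 50-base stretches with other genes, mostly Cyp2b13, and no other Cyp2b gene is among the 1834.

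Cyp2a22, a member of the Cyp2a subfamily of P450 genes, was lower in AAV-Ly6d by a smaller factor. Its normalised read count was 37.9, 17.9 and 39.2 in AAV-Ly6d, against 207, 79.6 and 633 in AAV-GFP. The groups did not overlap, since the lowest AAV-GFP library held 2.03 times the highest AAV-Ly6d library. The means were 31.7 ± 11.9 in AAV-Ly6d and 307 ± 290 in AAV-GFP (SD, n = 3 each), which puts the AAV-GFP mean at 9.68 times that of AAV-Ly6d. The log2 fold change was -2.83 (SE 0.70), and it was -2.07 when AAV-GFP replicate 3, the highest library, was left out and -3.55 when replicate 2, the lowest, was. Cyp2a22 (chromosome 7, 26931631 to 26939384, minus strand) lies 758 kb from Cyp2b9, measured between their leftmost bases, and no other table gene starts within 500 kb of either. It shares 25.7% of its 50-base stretches with Cyp2a12, and no other Cyp2a gene is among the 1834.

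**Figure D2:**
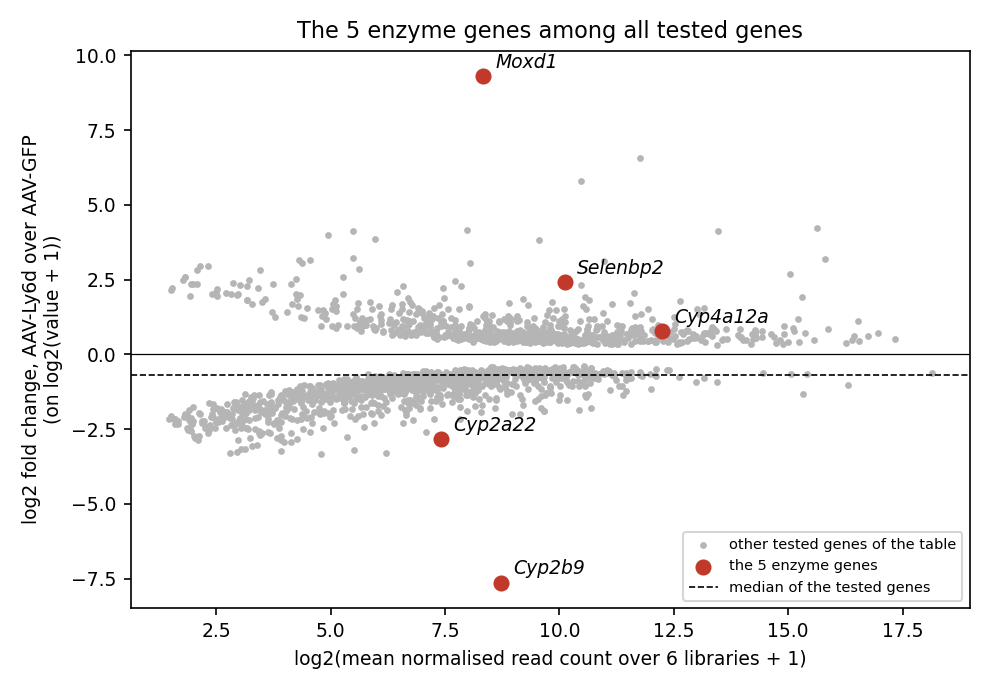
The 1780 tested genes by mean level (horizontal, log2 of the mean normalised read count over 6 libraries + 1) and log2 fold change of AAV-Ly6d over AAV-GFP (vertical, on log2(value + 1)), with the 5 enzyme genes in red. Moxd1 and Cyp2b9 lie at the upper and lower ends and Cyp4a12a lies within the bulk of the table; the height of Moxd1 depends on the pseudocount because its AAV-GFP values are 0.

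Side by side, the groups overlapped for none of the 5 genes, as for 84.5% of all tested genes; the genes were picked from this contrast, so nothing is read from that count. Per kilobase of annotated exon, the AAV-Ly6d means ran from Cyp4a12a (2456) over Selenbp2 (810), Moxd1 (201) and Cyp2a22 (9.19) to Cyp2b9 (1.10). These levels did not overlap between any neighbours in that order in AAV-Ly6d. In AAV-GFP the order of the means per kilobase was Cyp4a12a (1549), Cyp2b9 (449), Selenbp2 (164), Cyp2a22 (89.0) and Moxd1 (0). There Cyp4a12a overlapped with Cyp2b9, which spanned 115 to 1075 per kilobase against 835 to 2140 for Cyp4a12a. Selenbp2, at 82.9 to 260 per kilobase in AAV-GFP, overlapped with both Cyp2b9 and Cyp2a22, and Cyp2a22 spanned 23.1 to 184. Only Moxd1 was apart from its neighbour in AAV-GFP.

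Within the control group the genes also moved against each other. AAV-GFP replicate 3 had the highest Cyp2b9 and Cyp2a22 and the lowest Cyp4a12a of its group, whereas Selenbp2 was lowest in AAV-GFP replicate 2. Taken as deviations from the group means over all 6 libraries, log2 values of Cyp2b9 and Cyp2a22 had a Pearson correlation of 0.84, those of Cyp4a12a with Cyp2b9 one of -0.80 and those of Cyp4a12a with Cyp2a22 one of -0.67. Deviations of Moxd1 and Selenbp2 had a correlation of -0.03, but Moxd1 was 0 in every AAV-GFP library, so only its AAV-Ly6d values entered. The AAV-Ly6d part of the Cyp2b9 figures comes from 3, 0 and 3 reads, so counting noise enters them. All pairs share the same libraries, and with 6 values these figures describe the libraries only.

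Other male-biased liver genes were mostly higher in AAV-Ly6d. Of 38 listed genes 23 are in the table, and leaving out Moxd1, Selenbp2 and Cyp4a12a, 13 of 20 tested rose, 0 fell and 7 did not pass, with a median log2 fold change of 1.78. Of all 1780 tested genes 15.9% rose and 28.0% fell, with a median of -0.67. Of the 8 tested hepatocyte markers 5 rose and 0 fell, with a median of 0.71, so a high share that rose is not particular to male-biased genes. Most of the 20 are major urinary protein (Mup) genes, which share sequence, so the 20 are not independent of each other. Of the rest, Serpina1e, Cyp7b1, Gstp1, C6 and Cyp4a12b, a near copy of Cyp4a12a, rose, and Cyp2d9, Susd4 and Cyp2u1 did not pass. Serpina1e, an alpha-1-antitrypsin gene with near copies, had 89699, 136398 and 81719 in AAV-Ly6d against 15947, 13160 and 6434 in AAV-GFP and rose (3.18, SE 0.37, adjusted p = 0.0134 in limma). The major urinary protein genes Mup21 (1.68, SE 0.25), Mup20 (1.92, SE 0.33) and Mup15 (6.58, SE 1.16) encode pheromone carriers and rose as well, though such genes share sequence: 50.5% of the 50-base stretches of Mup20 occur in other genes. Cyp7b1, the oxysterol hydroxylase gene, rose by 1.37 (SE 0.27, adjusted p = 0.0287 in limma) and had 4492, 6709 and 4019 in AAV-Ly6d against 2232, 2208 and 1428 in AAV-GFP. Gstp1, a glutathione transferase gene, rose by 1.54 (SE 0.34, adjusted p = 0.0324 in limma). Cyp2d9, a steroid hydroxylase gene with male-predominant expression, did not pass (0.61, adjusted p = 0.0697 in limma), and Cyp2u1 was the 1 gene of the list below 0 (-0.96, adjusted p = 0.0548 in limma); both were named after their values were seen. Leaving out replicate 1 or replicate 3 of AAV-GFP gave 7 calls in place of 13, leaving out replicate 3 of AAV-Ly6d gave 1 and leaving out its replicate 1 gave 0, where 11 had an unadjusted p under 0.05 in limma.

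Female-biased liver genes went both ways, at shares near those of the whole table. Of 41 listed genes 14 are in the table, 11 were tested, and leaving out Cyp2b9, 4 fell, 1 rose and 5 did not pass of 10, with a median log2 fold change of -0.78. Of these 10 genes 7 were lower, passing or not, against 1080 of 1780 over the table, where 28.0% fell, 15.9% rose and the median was -0.67. Vldlr, a lipoprotein receptor gene, had 31.1, 37.9 and 40.3 in AAV-Ly6d against 144, 309 and 244 in AAV-GFP and fell (-2.58, SE 0.34, adjusted p = 0.0141 in limma). Slc22a27, an organic anion transporter gene, had 22.4, 1.99 and 19.6 in AAV-Ly6d against 42.6, 147 and 207 in AAV-GFP and fell (-3.29, SE 0.89, adjusted p = 0.0386 in limma). Cd36, a fatty acid transporter gene, fell (-1.34, SE 0.34), as did Gstt3, a glutathione transferase gene (-0.86, SE 0.29, with -0.52 and no call when rescaled). Cyp4a10 was the gene that rose. Slc22a26 (-2.43, adjusted p = 0.0502 in limma) and Cyp17a1 (1.29, adjusted p = 0.0701 in limma) did not pass. The low genes Akr1b7, Sult3a1 and Hao2, like Cyp17a1 named after their values were seen, missed the filter. Akr1b7 had 0, 0 and 0 in AAV-Ly6d against 4.84, 0 and 15.2 in AAV-GFP. Sult3a1, a sulfotransferase gene, had 0, 0 and 0 in AAV-Ly6d against 2.90, 0 and 17.7 in AAV-GFP. Hao2, a peroxisomal oxidase gene, had 0, 0.997 and 0 in AAV-Ly6d against 5.81, 0 and 14.3 in AAV-GFP. After rescaling, 3 passed as higher and 3 as lower. Leaving out AAV-GFP replicate 3 gave 1 call in place of 5, as did leaving out replicate 2 or 3 of AAV-Ly6d, leaving out AAV-GFP replicate 2 gave 3, and leaving out AAV-Ly6d replicate 1 gave 0, where 8 had an unadjusted p under 0.05 in limma.

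**Figure D3:**
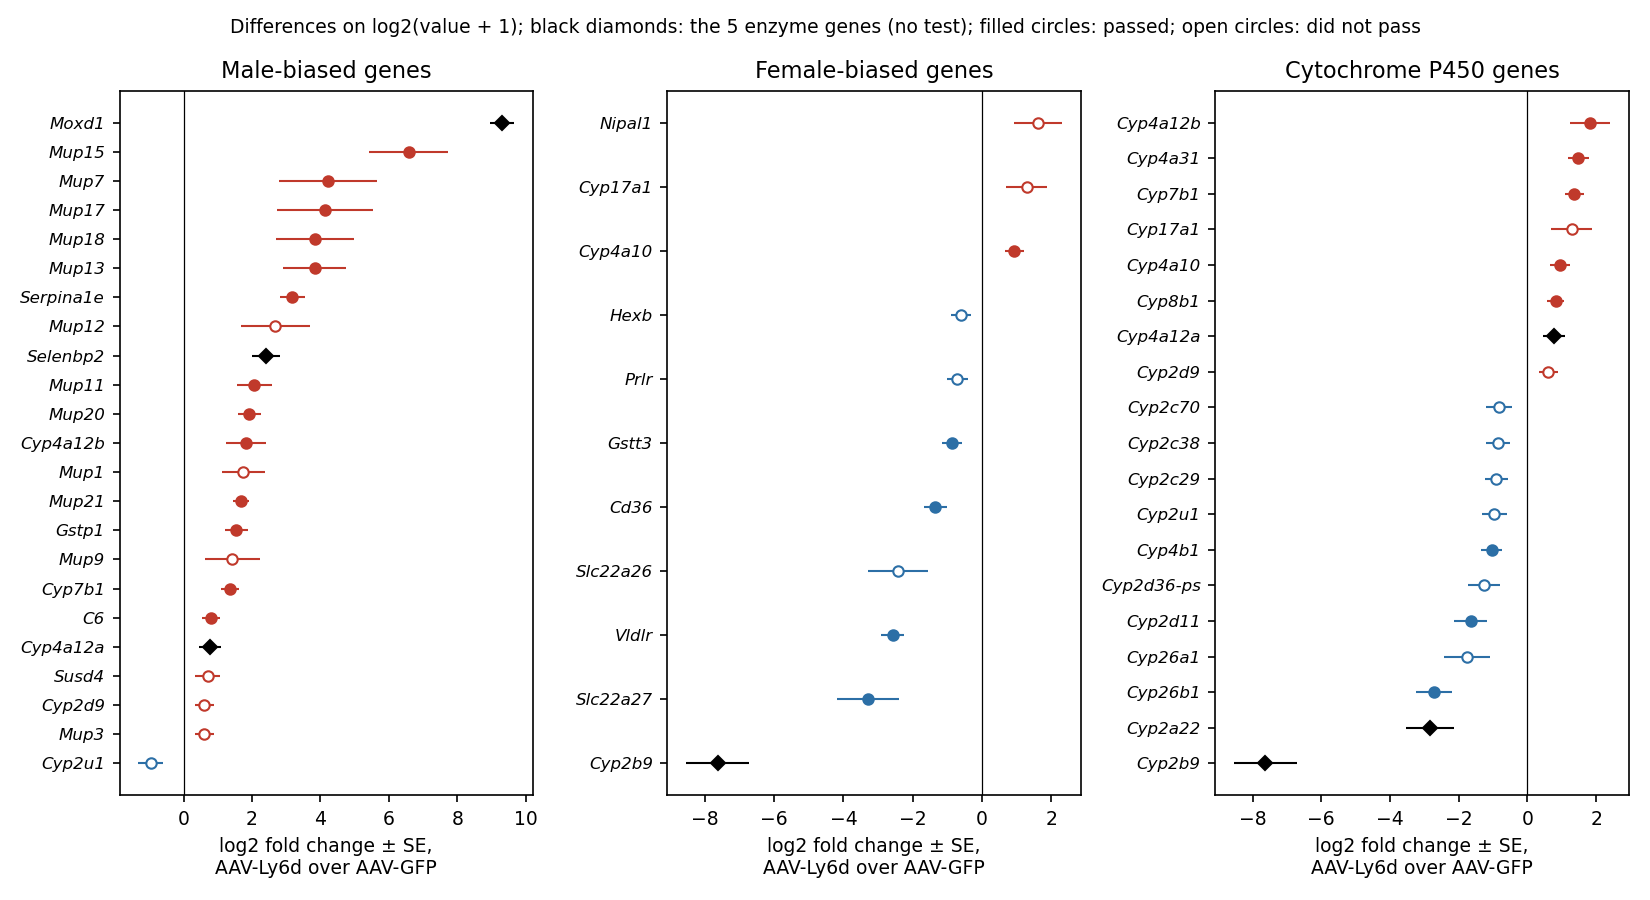
Log2 fold changes of AAV-Ly6d over AAV-GFP on log2(value + 1) with their SE for the tested male-biased, female-biased and cytochrome P450 genes; black diamonds are the 5 enzyme genes, filled circles passed limma's adjusted p of 0.05 and open circles did not. All tested male-biased genes except Cyp2u1 lie above 0, and the P450 genes spread to both sides.

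Libraries of 1 group also differed on these lists. AAV-GFP replicate 3, where Cyp2b9 and Cyp2a22 were highest, was the highest AAV-GFP library for 6 of the 10 other female-biased genes (60%), against 22.9% of all tested genes. AAV-GFP replicate 1 was the lowest for 8 of these 10 (80%), against 32.0% of all tested genes. For the 20 other male-biased genes AAV-GFP replicate 1 was the highest for 14 (70%), against 27.2% of all tested genes. The lowest AAV-GFP library was replicate 2 for 10 of these 20 and replicate 3, where Cyp4a12a was lowest, for 9 (50% and 45%, against 35.8% and 32.2% of all tested genes). In AAV-Ly6d, replicate 2 was the lowest library for 12 of the 20 male-biased genes (60%) and 7 of the 10 female-biased genes (70%), against 32.0% of all tested genes, and it was also lowest for Selenbp2, Cyp2b9 and Cyp2a22. Most of the male-biased genes in the table are Mup copies, which share sequence and are not independent of each other. Named after their values were seen, Mup12 had 89759, 6068 and 85938 and Mup17 had 26655, 853 and 38183 in AAV-Ly6d, so replicate 2 lay far below the other AAV-Ly6d libraries for both.

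**Figure D4:**
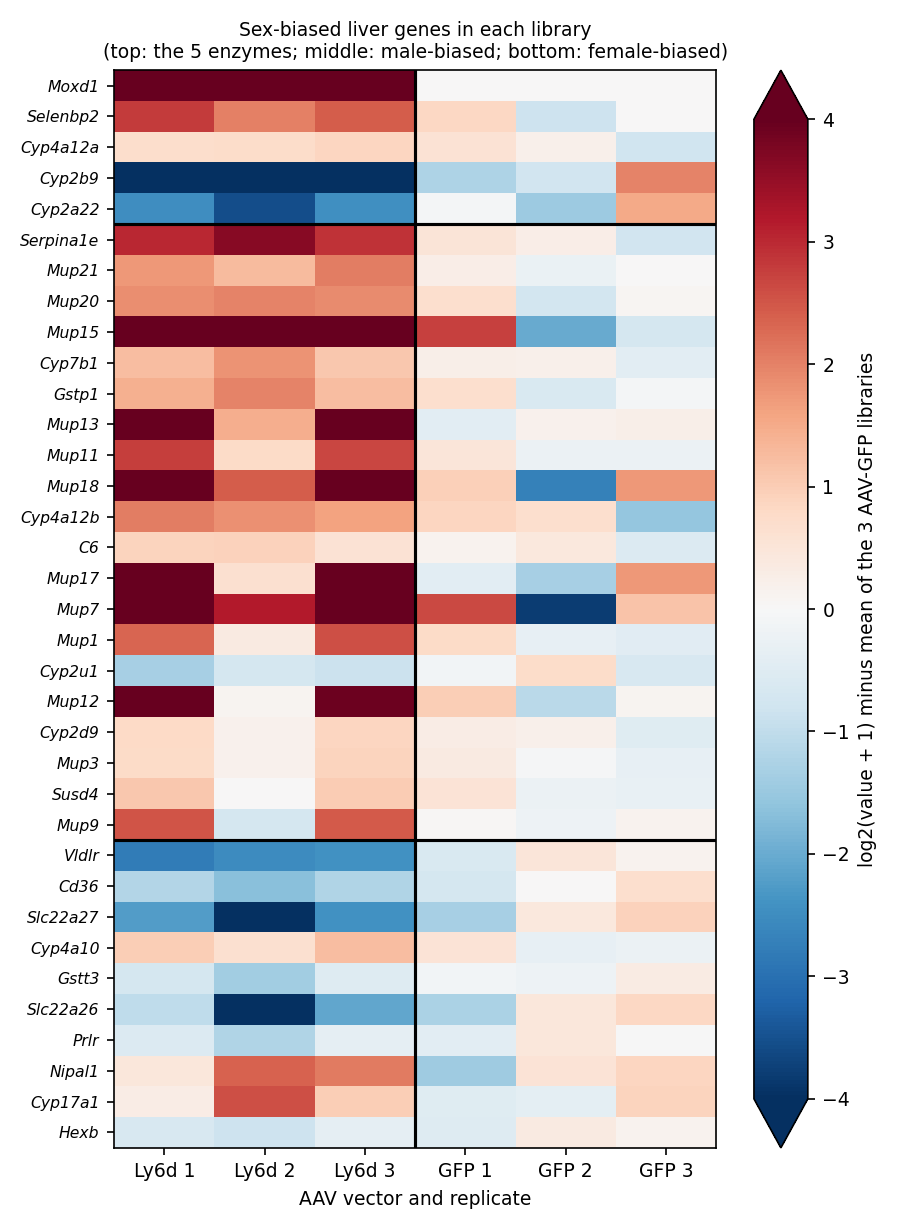
Colour gives log2(normalised read count + 1) minus the mean of the 3 AAV-GFP libraries for each gene (rows) in each library (columns, AAV-Ly6d left of AAV-GFP), with the 5 enzyme genes on top, male-biased genes in the middle and female-biased genes at the bottom, and values past 4 in either direction share the end colours. AAV-GFP replicate 3 is red for Cyp2b9, Cyp2a22 and Slc22a27, and AAV-Ly6d replicate 2 is paler than the other AAV-Ly6d libraries for several Mup genes.

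Of 46 listed genes of growth hormone signalling and its targets, 10 are in the table; Ghr, Jak2, Stat5b, Socs2, Cish and Igf1 are not among the 1834 and were not analysed here. Of the 10, 4 rose, 0 fell and 6 did not pass, with a median log2 fold change of 0.60, where 15.9% of all tested genes rose, 28.0% fell and the median was -0.67. Igfbp1, a secreted binding protein gene for insulin-like growth factors, had 2636, 7994 and 3390 in AAV-Ly6d against 1458, 804 and 1719 in AAV-GFP and rose (1.72, SE 0.44, adjusted p = 0.0365 in limma). The transcription factor genes Foxa3 (1.07, SE 0.31), Hnf4a (0.65, SE 0.19) and Klf9 (0.54, SE 0.18) rose too. Hnf4a is also counted above among the hepatocyte markers that rose. Socs3, a feedback inhibitor of JAK signalling, had a log2 fold change of 1.65 (adjusted p = 0.0519 in limma) and Cebpa one of 0.47 (adjusted p = 0.0503 in limma), and neither passed. Rescaling gave 7 calls in place of 4. Leaving out AAV-GFP replicate 2 gave 5 and leaving out any other single library gave 0, where between 4 and 9 of the 10 had an unadjusted p under 0.05 in limma.

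Among nuclear receptor and xenobiotic response genes 5 of 47 are in the table, of which 2 rose, 1 fell and 2 did not pass, with a median log2 fold change of -0.71. That median lies near the -0.67 of all tested genes, of which 15.9% rose and 28.0% fell. Por, the electron donor of all microsomal P450 enzymes, had 14313, 9849 and 11821 in AAV-Ly6d against 7501, 2462 and 5328 in AAV-GFP and rose (1.36, SE 0.38, adjusted p = 0.0405 in limma). The sulfotransferase gene Sult1a1 rose (0.71, SE 0.20) and the efflux pump gene Abcb1a fell (-1.37, SE 0.38). Cyp2c29 (-0.91, adjusted p = 0.0539 in limma) and Ugt1a6a (-0.71, adjusted p = 0.0705 in limma) did not pass. Leaving out AAV-Ly6d replicate 2 or AAV-GFP replicate 1 gave 1 call in place of 3, and leaving out AAV-Ly6d replicate 1 or 3 or AAV-GFP replicate 3 gave 0, where 4 had an unadjusted p under 0.05 in limma each time.

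Cytochrome P450 genes as a family went both ways. Of the 16 in the table besides Cyp4a12a, Cyp2b9 and Cyp2a22, 5 rose, 3 fell and 8 did not pass, with a median log2 fold change of -0.85. Of the 16, 9 were lower, passing or not, against 1080 of 1780 over the table, where 15.9% rose, 28.0% fell and the median was -0.67. Besides Cyp7b1 and the Cyp4a genes, Cyp8b1, the sterol 12-alpha-hydroxylase gene of bile acid synthesis, rose (0.82, SE 0.25, adjusted p = 0.0418 in limma; named after its values were seen). Cyp26b1, a retinoic acid hydroxylase gene, fell; it averaged 50.6 ± 41.8 in AAV-Ly6d and 274 ± 41.3 in AAV-GFP (SD, n = 3 each; log2 fold change -2.72, SE 0.53, adjusted p = 0.0287 in limma). Cyp2d11 fell as well (-1.65, SE 0.48, adjusted p = 0.0409 in limma). After rescaling, 7 passed as higher and 2 as lower. Leaving out replicate 1 or 3 of AAV-GFP gave 4 and 3 calls in place of 8, and leaving out replicate 2 of AAV-Ly6d gave 3. Leaving out replicate 1 or 3 of AAV-Ly6d gave 0, where 12 and 11 genes had an unadjusted p under 0.05 in limma.

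Pearson correlation of log2(value + 1) over the 6 libraries, a description in a table chosen for a group difference, named the genes most like each of the 5. For Moxd1 these were Bmx (0.998), the noncoding gene Gm26606 (0.998) and Plaa (0.995), of which Bmx and Gm26606 had 4 to 6 reads per AAV-Ly6d library. For Selenbp2 they were Inhbc, which encodes the activin C subunit (0.991), Hnf4a (0.988) and Rassf7 (0.987). Cyp4a12a was most like the carboxylesterase gene Ces3b (0.987), Gm3839 (0.977) and Gm33543 (0.971). For Cyp2b9 the genes were Fndc1 (0.994), Pkhd1l1 (0.979) and Mapt (0.976), and for Cyp2a22 they were Nbl1 (0.988), Hcn3 (0.970) and Fndc1 (0.964). Taken as deviations from the group means, the most similar genes were Osbpl5 (0.997), Nlrc3 (0.959) and Pdgfd (0.948) for Moxd1, and Zfp970 (0.983), Inhbc (0.979) and Orai3 (0.975) for Selenbp2. On the same measure they were Gm13408 (0.980), Ces3b (0.978) and Gm3839 (0.969) for Cyp4a12a, Cda (0.995), Fndc1 (0.960) and Rrp15 (0.950) for Cyp2b9, and A930018P22Rik (0.998), Rpl37 (0.992) and Gm4204 (0.985) for Cyp2a22. Inhbc, Ces3b, Gm3839 and Fndc1 appeared under both measures for the same gene. Moxd1 was 0 in every AAV-GFP library, so its deviations came from its AAV-Ly6d values only. For Moxd1 the measure therefore favoured genes that were flat in AAV-GFP.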

How the data were processed

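RNA of 6 mouse liver libraries was sequenced after standard Illumina library preparation, per the labels. The submitters' processing notes name Bowtie 0.12.2 and mm10, with no role or order. How reads were counted, with which annotation and strand, and how counts were normalised is not stated there. The deposited signal, a normalised read count per gene, is a whole multiple of 1 step per library (100% of values came out whole to within 0.01 step), so reads were recovered; for AAV-Ly6d replicate 2 the step, 0.997, is too near 1 for an automatic check, and its reads enter only the count tests and the read numbers. Full depth is unknown, and intervals and limits cover counting error only.

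Symbols, coordinates and transcripts came from GENCODE M21 (GRCm38, the mm10 assembly); 1833 of 1834 identifiers matched. Differences were fitted with limma 3.58.1 (R 4.3.3, mean-variance trend, no covariates) on log2(value + 1) for the 1780 genes that reached 1 in 3 or more libraries, with Benjamini-Hochberg adjustment over them. Fold changes on that scale understate changes of low genes. "Rose" and "fell" mean an adjusted p under 0.05. Alternatives were other filters, pseudocounts and scalings, edgeR 4.0.16 and DESeq2 1.42.0 on recovered reads, a replicate block and each library left out. Fits were tested on simulated data. The 5 genes and all lists were chosen with earlier results of these data known. Counts of calls in a list leave out the 5 genes, a choice made after the data were seen. Named are the 5 genes, Ly6d, their subfamily relatives and neighbours, and the 3 most correlated genes by each measure. Also named are the 6 genes of smallest p per list with the 5 genes left out.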

Additional observations from a re-analysis of the deposited data

How the results depend on the processing

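The differences of Selenbp2, Cyp4a12a, Cyp2b9 and Cyp2a22 kept their direction in each alternative run on them. These included a library left out, pseudocounts of 0.5 and 5, rescaling by the median ratio, edgeR, DESeq2 and the replicate block. Because the groups did not overlap for these genes, leaving out a library or changing the pseudocount could not reverse a direction. The replicate block could not change a fold change, since the design is balanced. Ranges over the fits without 1 library were 2.00 to 2.82 for Selenbp2, 0.37 to 1.05 for Cyp4a12a, -8.24 to -6.63 for Cyp2b9 and -3.55 to -2.07 for Cyp2a22; the AAV-Ly6d mean of Moxd1 ranged from 605 to 709. Counts of calls, given over the table and then for male-biased, female-biased, growth hormone, nuclear receptor and P450 genes without the 5 enzyme genes, were 782, 13, 5, 4, 3 and 8. They ranged over the fits without 1 library from 0 to 607 (773 genes had an unadjusted p under 0.05 in limma where it was 0), 0 to 12, 0 to 4, 0 to 5, 0 to 3 and 0 to 8. Same-numbered libraries did not deviate together (correlations -0.02, -0.05 and -0.06). With 3 libraries per group this cannot show whether the numbers mark pairs, and the labels do not say. With the replicate block the counts, in the same order, were 48, 4, 2, 0, 0 and 2. Where the count was 0, 5 and 3 genes had an unadjusted p under 0.05 in limma. At an adjusted p of 0.01 the counts were 1, 0, 0, 0, 0 and 0. The 5 lists then had 16, 8, 8, 4 and 13 genes at an unadjusted p under 0.05 in limma. DESeq2 called 1338 genes over the table, 503 higher and 835 lower. Its calls included 9 female-biased genes (3 higher, 6 lower) and 8 growth hormone genes (6 higher, 2 lower). Of P450 genes it called 15 (6 higher, 9 lower), where limma had 5 higher and 3 lower. EdgeR on the deposited scale called 465 over the table, 3 female-biased and 4 P450 genes, and with TMM factors 7 growth hormone genes. Rescaling gave 7 growth hormone genes. Without the trend 8 male-biased, 3 female-biased, 1 growth hormone, 1 nuclear receptor and 4 P450 genes were called. On/off genes numbered 100 when up to 3 reads over the low group were allowed. The causes were not tested. Depth limits Cyp2b9 in AAV-Ly6d, with 6 reads in all.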
